A study of Rattus norvegicus with 40 samples.

Results

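Hippocampal slices of 4 young rats were compared between the 2 protocols of repetitive transcranial magnetic stimulation (rTMS) used on them, intermittent theta burst stimulation (iTBS) and stimulation at 1 Hz. The comparison takes 8 of the 40 arrays of the series, the 4 primary arrays of each protocol, and pairs them by the number of the rat. The rats were male Long-Evans, an outbred strain, 5 to 6 months old. The hippocampi of each rat were cut into serial slices that were dealt in equal numbers to 3 dishes, and the slices of a dish gave 1 array, so an array pools several slices of 1 rat. Both dishes used here were stimulated 1 cm under the coil at 15% of the output of the machine, with the same total number of pulses, and stood in artificial cerebrospinal fluid afterwards. The treatment protocol in the labels gives a rest of 2 h before RNA collection, whereas another label of the same samples gives 1 h. The third dish, sham, did not enter, and which slice of the series went to which dish is not given in the sources used here. For the comparison across age, 8 arrays of aged unimpaired (AU) rats and 8 of aged impaired (AI) rats, treated in the same way, were added. These rats were 25 to 26 months old by one label and 24 to 25 by the treatment protocol. In AU rats the spatial memory score was on par with that of the young, and in AI rats it was worse.

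In rTMS a brief magnetic pulse induces a current in the tissue under the coil. Pulses at 1 Hz are widely used as a low-frequency protocol that lowers cortical excitability, and iTBS, short bursts repeated at the theta rhythm, as one that raises it. Neurons that have been active transcribe immediate early genes such as *Fos*, *Egr1* and *Arc* within minutes, many of them through CREB, a factor that binds the cAMP response element (CRE) in their promoters, and later express slower genes such as *Bdnf*. The hippocampus is made of the dentate gyrus and the fields CA3, CA2 and CA1, and its gene expression also changes along its long axis from the dorsal (septal) to the ventral (temporal) pole.

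Levels are on a log2 scale that is centred on each array: the log2 intensity became a z-score over all features of the array, and the z-score was brought back to log2 units with a factor of 4.11, the average SD of the arrays compared. A level of 0 is therefore the mean of the array, and levels of different probes cannot be set against each other. Differences are iTBS minus 1 Hz within a rat, averaged over the rats, with the standard error (SE) of limma. On the 8 arrays 73.8% to 92.4% of the features were well above background, and the SD of the log2 intensities ran from 3.42 to 4.47. The iTBS array of rat 2 stood at the low end of the SDs, the lowest of the 36 primary arrays of the series. The 2 arrays of a rat lay on the same slide, and the 4 rats on 4 slides, so rat and slide cannot be told apart. The labels end in 11 for all 4 iTBS samples and in 6 or 7 for the 1 Hz samples, and the sources used here do not say what this number counts. Each rat gave 1 dish and 1 array per protocol, so p-values measure the spread between rats, which also holds the spread between dishes.

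No probe passed the test. Of 30629 probes tested with the rat as a block, 0 had an adjusted p under 0.05 (limma, Benjamini-Hochberg), which is 0% of those tested, and the smallest adjusted p was 0.239. Before adjustment 4088 probes, or 13.3%, had a p under 0.05, of which 1673 were higher and 2415 lower after iTBS. Each gene was then read from its brightest probe. Of 12683 genes so read, 5.61% were higher in iTBS slices and 8.06% were lower at an unadjusted p under 0.05, and of 12630 genes measured in every rat 11.6% were higher in all 4 rats and 15.8% lower. These shares are the background for the counts below that were made with z-scores and all 4 rats. Other settings have their own background at this p. With arrays scaled to their 75th percentile 4515 of 30629 probes were higher and 863 lower. Without rat 4 these counts were 1545 and 2896, without rat 1 1072 and 1184, and without rat 2 1425 and 1537. The median difference of all genes was -0.04. The split depends on the scaling: of the genes at this p, 41.1% were higher with z-scores, 47.3% after normexp and quantile normalization and 78.4% with arrays scaled to their 75th percentile, which moved the median of all genes to 0.07. Differences near these shifts have no settled direction. Of 101 named genes with an unadjusted p under 0.05, 0 changed sign under either alternative. Some genes with a larger p did, among them *Egr1*, *Egr2*, *Nr4a1*, *Nr4a3*, *Ccn1*, *C1qb*, *C4b*, *Cd68*, *Tnfsf9*, *Cldn14*, *Folr1*, *Otx2* and *Mpped1*. Sizes were less settled than signs: for 26 of the 101 the difference was over 1.5 times as large with z-scores as after normexp and quantile normalization, and for 0 the reverse held.

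The count of calls rests on how the rat enters the fit. Without the rat as a block 0 probes passed and 535 were higher and 472 lower at an unadjusted p under 0.05 (limma, smallest adjusted p = 0.453). With the rat as a random block, for which limma estimated a correlation of 0.71 between the arrays of a rat, 212 probes passed, 140 higher and 72 lower after iTBS. They stand for 112 named genes and 90 probes with no gene name here, and they include 16 of the 20 genes described next as well as *Htr2c*. The values below are therefore described as differences in 4 rats, not as calls.

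The 10 genes of smallest p that were higher after iTBS in all 4 rats included 4 receptor genes. *Mest*, an imprinted gene, measured 1.11, 1.68, 1.09 and 1.52 on the 1 Hz arrays of rats 1 to 4 and 2.40, 2.65, 2.26 and 2.52 on their iTBS arrays. Every iTBS value lay above every 1 Hz value, and the difference was 1.11 ± 0.10 (SE; adjusted p = 0.239, limma). *Tenm4*, a teneurin of the neuronal surface involved in synaptic partner matching, went from 4.68, 5.21, 4.82 and 5.60 to 6.10, 6.50, 5.85 and 6.62, a difference of 1.19 ± 0.11. The pair of groups did not overlap here either, and a second *Tenm4* probe gave 1.05. *Gli1*, the transcriptional effector and target of hedgehog signalling, differed by 1.92 ± 0.18, or 3.79-fold, the largest of the 10 with z-scores, but by 1.18 after normexp, where *Sstr1* (1.53) was larger. Its 1 Hz levels were closely grouped at -2.45, -2.42, -2.60 and -2.69, while the iTBS levels spread over -0.11, -0.34, -1.28 and -0.73, with rat 3 the lowest.

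The receptor genes were those of somatostatin, neurokinin and acetylcholine. *Sstr1*, a somatostatin receptor of inhibitory signalling, measured 0.78, 1.64, 1.85 and 1.49 with 1 Hz and 2.62, 3.12, 2.95 and 3.24 with iTBS (difference 1.54 ± 0.15, the same for its second probe, 1.54). *Tacr3*, the receptor of neurokinin B, measured -2.20, -0.58, -1.29 and -1.22 with 1 Hz and 0.01, 0.84, -0.00 and 0.23 with iTBS (difference 1.60 ± 0.17). For both, the lowest iTBS value was above the highest 1 Hz value. The nicotinic acetylcholine receptor subunits *Chrna4* and *Chrna5* were higher by 1.64 ± 0.20 and 1.07 ± 0.11. *Chrna4* went from -2.06, -1.21, -2.36 and -2.53 to -0.34, -0.01, -1.02 and -0.24 without overlap. *Chrna5* overlapped between groups, since rats differed more from each other than the protocols did: rat 2 was highest and rat 4 lowest on both of their arrays. The remaining members were *Dusp26*, a phosphatase (1.07 ± 0.13), *Catsperg*, an auxiliary subunit of the sperm calcium channel (0.91 ± 0.09), and *Galnt14*, an enzyme of mucin-type O-glycosylation (0.84 ± 0.10). *Catsperg* and *Chrna5* were dim, well above background on 3 of 4 arrays of the 1 Hz group. After normexp the differences of *Chrna4*, *Chrna5* and *Catsperg* were 1.03, 0.56 and 0.27.

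**Figure D1:**
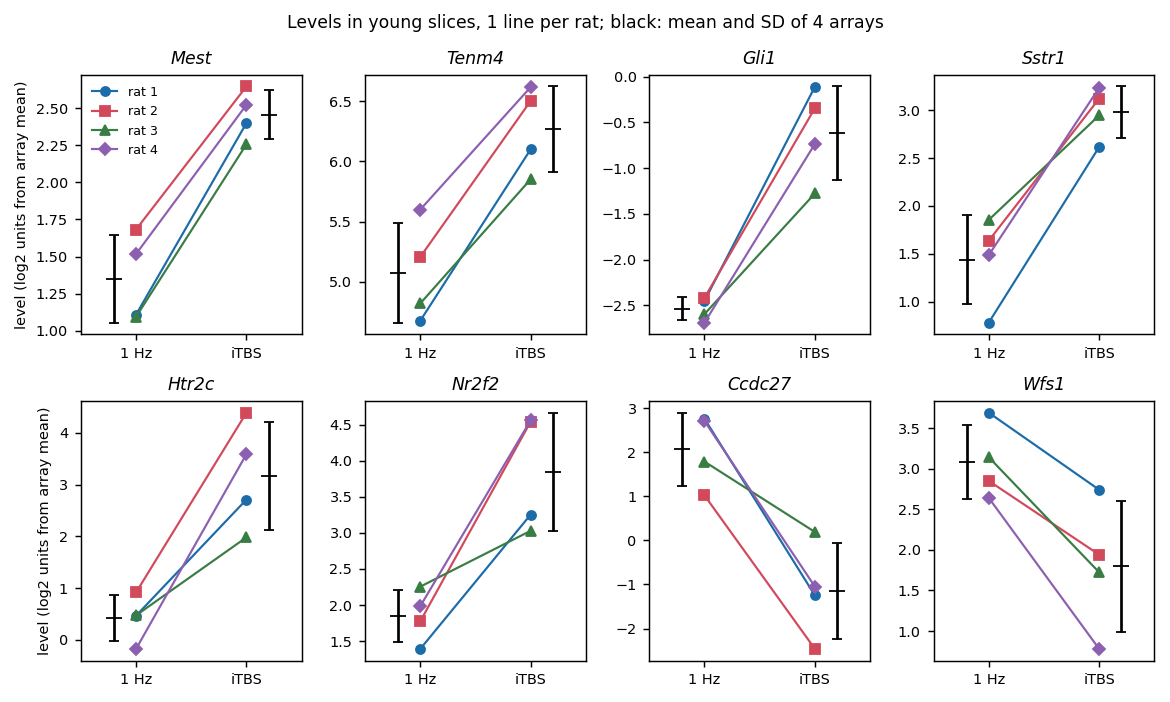
Levels of 8 genes in young slices, in log2 units from the array mean, with 1 line from the 1 Hz array to the iTBS array of each rat and the mean and SD of the 4 arrays of a group in black. All lines of *Mest*, *Tenm4*, *Gli1*, *Sstr1*, *Htr2c* and *Nr2f2* run upward and those of *Ccdc27* and *Wfs1* downward, and *Wfs1* overlaps between groups because its 1 Hz value in rat 4 (2.64) is below the iTBS value of rat 1 (2.74).

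On the other side, of the 10 genes of smallest p that were lower after iTBS in every rat, *Ccdc27*, which encodes a coiled-coil protein, differed most. Its levels were 2.76, 1.02, 1.79 and 2.70 with 1 Hz and -1.25, -2.46, 0.19 and -1.05 with iTBS, a difference of -3.21 ± 0.41 or 9.25-fold. *Tp73*, a transcription factor of the p53 family expressed in Cajal-Retzius cells and multiciliated ependyma, measured 0.06, -1.14, 0.07 and 0.84 against -1.63, -4.39, -1.53 and -2.06, a difference of -2.36 ± 0.32. In both genes the groups were apart. *Wfs1*, an endoplasmic reticulum protein used as a marker of CA1 pyramidal cells, was lower by 1.29 ± 0.18 on the log2 scale, with the groups touching in the plot of paired levels. *Gpr12*, an orphan receptor coupled to cAMP production, measured 0.10, -1.02, -0.25 and -0.03 with 1 Hz and -1.31, -2.00, -0.98 and -0.90 with iTBS, lower in each rat and again with some overlap. The others were *Fam163b* (-0.84 ± 0.11), *Birc7*, an inhibitor of apoptosis (-0.63 ± 0.08), *Tmem144* (-0.97 ± 0.13), *Col6a5*, a collagen VI chain (-1.15 ± 0.16), *Slfn9* (-1.35 ± 0.18) and *Clhc1* (-0.96 ± 0.13). *Fam163b* was the only one of these 6 whose groups did not overlap. *Clhc1* was well above background on 1 of 4 iTBS arrays. After normexp 6 of the 10 had smaller differences by over 1.5 times, -1.34 for *Tp73*, -0.62 for *Gpr12*, -0.35 for *Birc7*, -0.66 for *Col6a5*, -0.43 for *Slfn9* and -0.24 for *Clhc1*. Of the 20 genes, higher and lower, 16 were well above background on all 8 arrays, as were 127 of 137 named genes in this report. The rest were so on all 4 arrays of 1 group only. Rat 3 gave the smallest difference of the 4 rats in 11 of the 20 genes and rat 1 the largest in 10.

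Some genes that mark positions within the hippocampus differed in the same direction in every rat. *Htr2c*, a serotonin receptor enriched toward the ventral pole, measured 0.47, 0.92, 0.47 and -0.17 with 1 Hz and 2.71, 4.39, 1.98 and 3.59 with iTBS. The lowest iTBS level was above the highest 1 Hz level, and the difference was 2.75 ± 0.40, or 6.72-fold (adjusted p = 0.239, limma). *Nr2f2*, a transcription factor of the same region and of caudal interneurons, went from 1.39, 1.77, 2.25 and 1.98 to 3.25, 4.54, 3.03 and 4.56 (2.00 ± 0.34, and 2.09 by its second probe). The other ventral markers tested were *Dcn*, a proteoglycan that fibroblasts also make (0.80 ± 0.33), and *Calb2*, calretinin (0.55 ± 0.23), both with overlapping groups. *Trhr* was not tested, since it was well above background on 3 of 4 arrays in each group. Over the 4 tested markers of the ventral hippocampus the median difference was 1.40, with mean levels of 0.82 to 1.32 on the 1 Hz arrays and 1.99 to 3.20 on the iTBS arrays, and the mean differences of rats 1 to 4 were 1.07, 2.26, 0.68 and 2.09.

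The markers of the pyramidal fields were mixed. *Pou3f1*, a POU-domain factor of CA1, measured 4.29, 4.35, 3.95 and 3.69 with 1 Hz and 3.67, 3.28, 3.70 and 3.02 with iTBS (-0.66 ± 0.15). *Rgs14*, the regulator of G-protein signalling that marks CA2, went from 4.72, 4.51, 4.41 and 4.82 to 3.98, 3.38, 4.01 and 3.79 without overlap (-0.83 ± 0.15). Another CA2 marker, the adhesion protein gene *Amigo2*, was higher by 0.47 ± 0.11, so the CA2 list did not go one way. In CA3, *Bok* was lower by 0.78 ± 0.19 on the log2 scale and *Cpne4*, a copine, by 0.87 ± 0.25. *Bok* and *Cpne4* were lower in all 4 rats, and their smallest differences were in rat 3. At an unadjusted p under 0.05, 2 of 5 CA1 markers, 1 of 4 in CA2 and 2 of 4 in CA3 were lower, and 0 of 4 dentate granule cell markers were at this p. The other CA1 markers were *Fibcd1* (0.19 ± 0.15), *Mpped1* (0.02 ± 0.11) and *Man1a1* (-0.17 ± 0.12), and the list median was -0.17, or -0.04 with 75th percentile scaling. In CA2, *Pcp4* differed by 0.02 and *Necab2* by -0.29, and in CA3 *Elavl2* by 0.16 ± 0.11 and *Grik4* by -0.24 ± 0.16. The CA3 median was -0.51. *C1ql2*, a granule cell marker, was 3.67, 4.01, 4.01 and 1.19 on the 1 Hz arrays, so that of rat 4 stood far below the others. Its iTBS levels were 1.96, 3.29, 3.83 and 1.87. In bulk slices, fewer cells of a type and less RNA per cell cannot be told apart. The position of the slices in each dish was not recorded in the labels, and the part of these markers in the other differences was not tested.

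**Figure D2:**
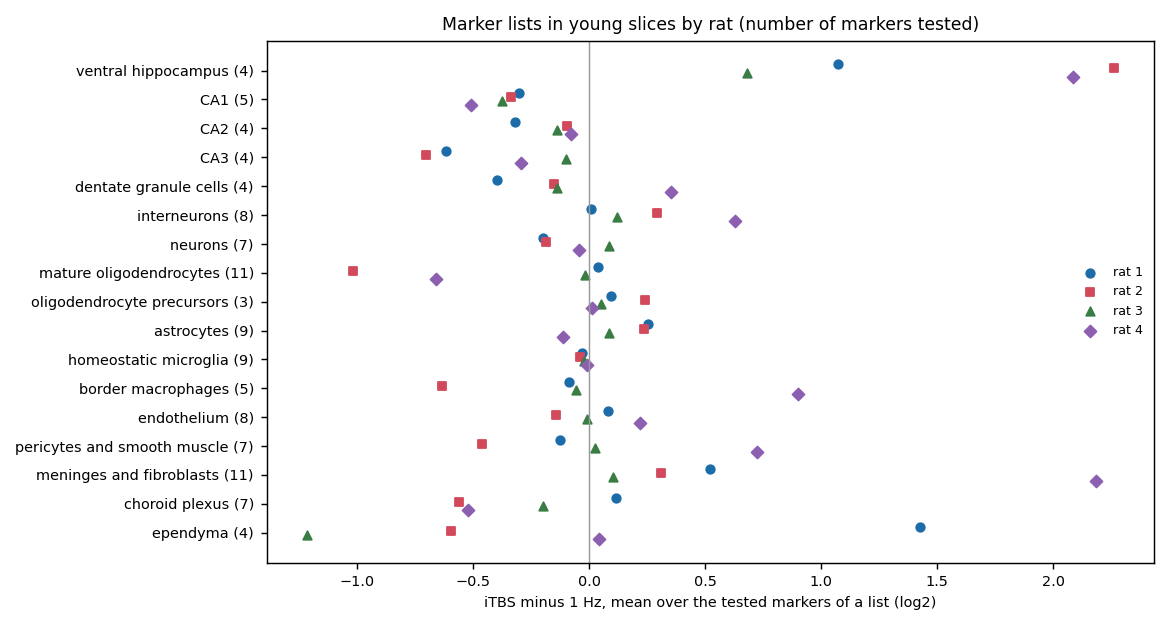
Mean difference, iTBS minus 1 Hz in log2 units, over the tested markers of each list (their number in brackets), with 1 point per rat. The 4 points of the ventral hippocampus lie between 0.68 and 2.26, those of CA1 between -0.51 and -0.30, to which *Wfs1* and *Pou3f1* gave the most, and rat 4 stands apart in the meningeal list at 2.18.

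The immediate early genes were read at a single time, 1 or 2 h after stimulation depending on the label. A difference in neuronal activity that had faded by then cannot be seen in them. All 25 genes of the list were tested, 24 had an unadjusted p of 0.05 or more, and the median difference was 0.01, beside -0.04 for all genes. *Fos* measured 4.15, 3.66, 4.36 and 4.02 with 1 Hz and 4.45, 3.88, 3.73 and 3.84 with iTBS. Rats 1 and 2 were higher after iTBS and rats 3 and 4 lower, and the difference was -0.07 ± 0.18. *Egr1*, a zinc finger factor, measured 5.76, 4.44, 4.97 and 5.67 against 5.86, 4.59, 4.91 and 5.53, a difference of 0.01 ± 0.10. Here rats differed by over 1 unit while their dishes were within 0.2 of each other. *Arc*, whose protein acts at the postsynaptic density, measured 4.83, 4.45, 4.56 and 4.21 against 4.24, 4.08, 4.58 and 4.03 (-0.28 ± 0.13), lower in rats 1, 2 and 4. *Fosl1*, a Fos-related subunit of AP-1, had the lowest p of the list, with a difference of -0.71 ± 0.26 that came from rats 1, 2 and 3 (adjusted p = 0.342, limma). *Junb* had the largest mean difference on the other side, 0.39 ± 0.35, and it came from rat 4, at 0.22 with 1 Hz and 1.98 with iTBS. *Nr4a1*, *Nr4a2*, *Nr4a3* and *Homer1* differed by 0.03, 0.06, -0.01 and 0.04. The SEs of the list ran from 0.09 (*Jund*) to 0.35 (*Junb*), and a p above the threshold does not show equal levels.

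**Figure D3:**
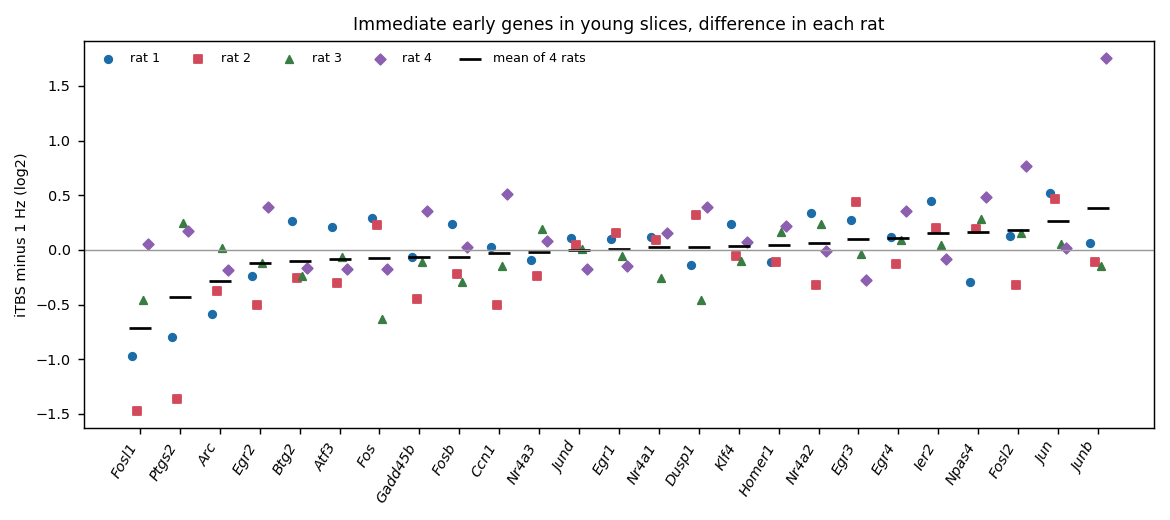
Difference of the 25 immediate early genes, iTBS minus 1 Hz in log2 units, in each rat (points) and as the mean of the 4 rats (black bars), ordered by the mean. The means run from -0.71 (*Fosl1*) to 0.39 (*Junb*), and for most genes the rats lie on both sides of 0.

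The promoters of 4 immediate early genes held the palindromic CRE, and they are shown because this element is known to carry the response of promoters to cAMP and calcium. The stretches were taken from RefSeq promoters (250 bases before to 50 after the start of the gene, build GRCr8), and capitals mark the motif TGACGTCA, which reads the same on both strands. In order they lie at chr16:18769939-18770021 (minus strand), chr19:40399261-40399360 (plus), chr10:17184683-17184782 (plus) and chr13:48087838-48087937 (minus).
Jund: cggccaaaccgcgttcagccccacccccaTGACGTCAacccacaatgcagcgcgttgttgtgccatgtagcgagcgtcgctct
Ier2: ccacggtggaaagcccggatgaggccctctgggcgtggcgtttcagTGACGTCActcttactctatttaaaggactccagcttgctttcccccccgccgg
Dusp1: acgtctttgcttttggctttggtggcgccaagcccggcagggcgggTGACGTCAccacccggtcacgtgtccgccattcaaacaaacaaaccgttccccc
Btg2: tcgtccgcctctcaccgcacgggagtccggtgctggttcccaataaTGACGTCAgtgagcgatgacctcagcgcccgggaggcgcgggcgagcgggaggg

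Of the 25 genes 19 had a promoter in the table, and 612 of all 33469 promoters (1.83%) held the motif. The differences of the 4 genes were small: -0.00 ± 0.09 for *Jund*, 0.15 ± 0.12 for *Ier2*, 0.03 ± 0.17 for *Dusp1*, a phosphatase of MAP kinases, and -0.10 ± 0.12 for *Btg2*. Over the 316 tested genes whose promoter held the motif the median difference was -0.05, beside -0.04 for the 10347 tested genes with a promoter in the table. Of the former 4.11% were higher and 6.65% lower at an unadjusted p under 0.05, and of the latter 5.38% and 8.03%.

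Of the 20 genes of slower activity-dependent and neurotrophin signalling, 2 were higher and 4 lower at an unadjusted p under 0.05. *Rgs4*, which shortens signalling through Gq- and Gi-coupled receptors, measured 2.42, 4.03, 2.68 and 2.30 with 1 Hz and 4.24, 4.61, 4.19 and 3.67 with iTBS (1.32 ± 0.21). It was higher in every rat, and rat 2 started highest and differed least. *Rgs2*, of the same family, was higher by 0.44 ± 0.09 with groups that did not overlap. *Ntf3*, neurotrophin 3, was lower by 0.85 ± 0.16 on the log2 scale, *Npy*, neuropeptide Y, by 0.47 ± 0.18, and *Dusp6*, a phosphatase of ERK, by 0.33 ± 0.10. The median of the list was -0.01, and its sign turned with the scaling.

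Among GABA receptor subunits, of the A and B types, *Gabra3* measured -1.04, -1.09, -1.14 and -1.83 with 1 Hz and -0.63, -0.18, -0.76 and -0.60 with iTBS, without overlap (0.73 ± 0.17). *Gabrg3* (0.58 ± 0.18) and *Gabrb1* (0.46 ± 0.16) were also higher, and *Gabrd*, the subunit of tonic inhibition that dentate granule cells express strongly, was lower (-0.68 ± 0.22). That made 3 higher and 1 lower of 15 tested, with a list median of 0.01 that turned to -0.02 after normexp and quantile normalization. *Gad1*, which makes GABA, differed by 0.36 ± 0.15, higher in 3 of 4 rats.

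Of 17 ionotropic glutamate receptor subunits tested, 2 were higher and 1 lower. *Grin3a*, an NMDA receptor subunit that limits calcium entry, went from -0.66, -0.70, 0.26 and -0.67 to 0.48, 0.65, 0.97 and 1.28, so the groups were apart (1.29 ± 0.21). *Gria4*, an AMPA receptor subunit, was higher by 0.50 ± 0.14, though its second probe gave 0.12. *Grin2a*, the NMDA subunit of mature synapses, was lower by 0.54 ± 0.21 on the log2 scale. *Gria2* had the most negative mean difference of the list, -1.78 ± 1.05, and it came from 1 array: the iTBS level of rat 4 was -5.42, and the other 7 levels lay between -0.70 and 0.81. Of 8 metabotropic receptors, *Grm8*, a presynaptic receptor that lowers release, was higher by 1.56 ± 0.21. *Grm8* measured -1.90, -1.21, -1.95 and -2.34 with 1 Hz and 0.33, 0.09, -0.22 and -1.34 with iTBS, with rat 4 the lowest in both dishes. *Slc17a8*, the vesicular transporter VGLUT3, was higher by 0.59 ± 0.11, but by 0.14 after normexp, and it was well above background on only 1 of 4 arrays of the 1 Hz group.

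The cholinergic list, to which *Chrna4* and *Chrna5* belong, had 4 higher and 2 lower genes of 13 tested. *Chrm4*, an inhibitory muscarinic receptor, was higher by 0.82 ± 0.27 and *Chrnb2*, the usual partner of *Chrna4*, by 0.27 ± 0.10. *Chrm3* was lower by 0.74 ± 0.19 on the log2 scale. *Slc5a7*, the choline transporter of cholinergic terminals, measured -2.86, -3.01, -1.42 and -0.93 with 1 Hz and -3.71, -3.51, -2.04 and -2.31 with iTBS, lower in all 4 rats (-0.84 ± 0.17). Another 5 genes of the list, *Chrna2*, *Chrna3*, *Chrna6*, *Chrnb3* and *Chrm5*, were too dim to test.

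Of 22 postsynaptic signalling and scaffold genes tested, 5 were lower and 2 higher at this p, and all 7 belong to calcium signalling. *Camk4*, a nuclear calcium/calmodulin kinase that phosphorylates CREB, measured 3.09, 3.08, 2.75 and 3.32 with 1 Hz and 1.98, 1.23, 2.49 and 1.30 with iTBS, without overlap (-1.31 ± 0.31). *Camk2b* (-0.55 ± 0.10) and *Camk2a* (-0.50 ± 0.13), the subunits of the main synaptic CaM kinase II, and *Ppp3ca* (-0.39 ± 0.11) and *Ppp3r1* (-0.25 ± 0.09), the subunits of calcineurin, were lower as well. *Camk2d* (0.73 ± 0.15) and *Camk2g* (0.35 ± 0.12), the other CaM kinase II genes, were higher. So the 4 genes of this kinase split into a pair on each side, with *Camk2a* and *Camk2b* lower in all 4 rats and *Camk2d* and *Camk2g* higher in all 4.

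Of 20 synaptic vesicle genes 5 were higher and 0 lower at an unadjusted p under 0.05. They were *Syn2*, a synapsin (0.45 ± 0.14), *Snap25*, the membrane SNARE of release (0.42 ± 0.14), *Stx1a*, its syntaxin partner (0.35 ± 0.13), *Sv2b*, a vesicle glycoprotein (0.60 ± 0.22), and *Syt2*, a fast calcium sensor (0.71 ± 0.28). The second probe of *Syt2* gave 0.10. The median of the list was 0.11. Of the vesicle genes 14 had a positive difference, while ion channels spread to both sides, 6 higher and 6 lower of 31. *Kcnt1*, a sodium-activated potassium channel, measured 2.43, 2.85, 2.23 and 2.09 with 1 Hz and 3.25, 3.33, 3.29 and 3.21 with iTBS, a narrow band above all the 1 Hz values (0.87 ± 0.13). *Kcnd3*, an A-type potassium channel (0.69 ± 0.15), and *Cacna1g*, a T-type calcium channel (0.48 ± 0.11), were higher too. *Scn4b*, an auxiliary subunit of sodium channels, was lower without overlap (-1.10 ± 0.28), and *Kcnq3* (-0.59 ± 0.19) and *Cacna1a*, the P/Q-type channel (-0.56 ± 0.13), were also lower. With 75th percentile scaling the channels counted 9 higher and 5 lower.

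**Figure D4:**
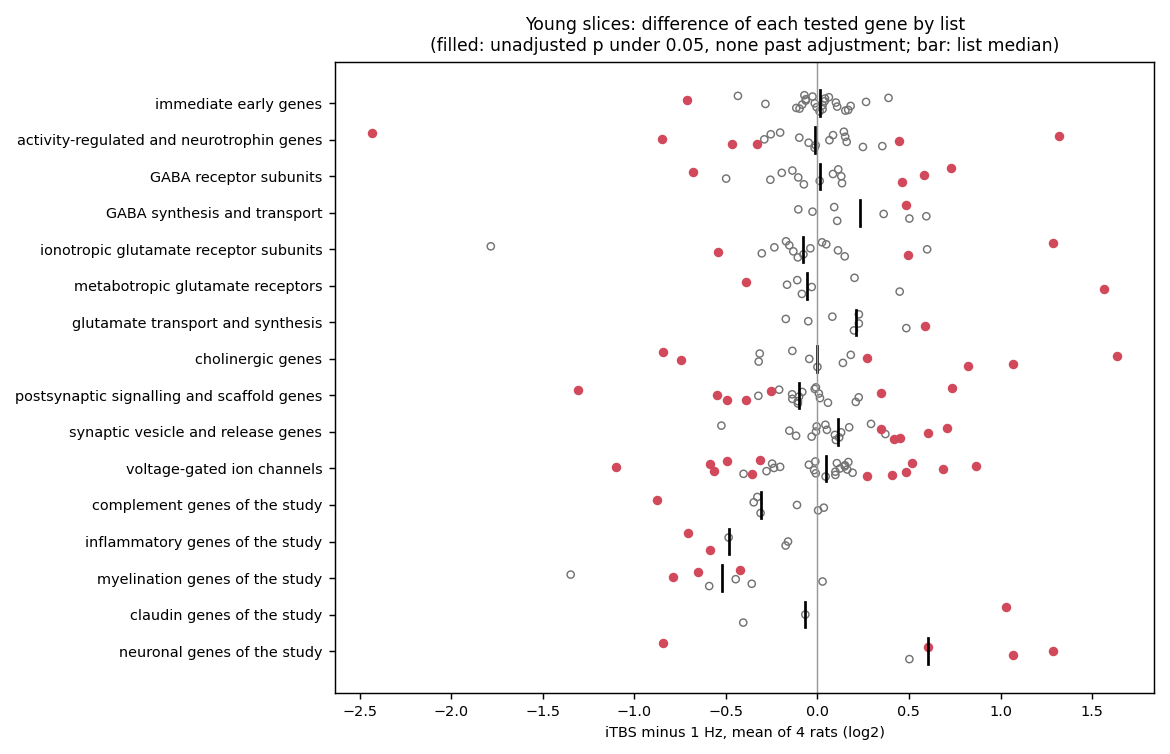
Difference of each tested gene, iTBS minus 1 Hz in log2 units as the mean of 4 rats, by list, with filled points for an unadjusted p under 0.05 (limma) and black bars for the list medians. No point passed adjustment. The neuronal list of the study has its median at 0.60 and the myelination list at -0.52, while the medians of the immediate early genes (0.01) and the GABA receptors (0.01) lie near 0.

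The genes that the study singled out were chosen on these samples among others, so they are no independent evidence of a direction. Of its 8 complement genes 7 were tested and 1 was lower. *C3*, the central complement component, measured 2.34, 2.45, 1.98 and 2.45 with 1 Hz and 1.69, 0.92, 1.44 and 1.67 with iTBS, without overlap (-0.88 ± 0.18). *C1qb*, a chain of the C1q initiator, differed by 0.04 ± 0.08, *C1qc* by -0.35 ± 0.15, *C2* by -0.33 ± 0.15, *C3ar1*, the receptor of C3a, by -0.31 ± 0.16, *C4a* by 0.00 ± 0.24 and *C4b* by -0.11 ± 0.26. *C4a* and *C4b* are near-identical copies whose probes may share signal. Without rat 4 the count of lower complement genes was 5 of 7.

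Of 8 inflammatory genes 5 were tested and 2 were lower. *Il1b*, interleukin 1 beta, measured 2.32, 2.27, 2.79 and 1.98 with 1 Hz and 1.49, 1.05, 2.30 and 1.70 with iTBS (-0.71 ± 0.17), and *Il1a* was lower in all 4 rats as well (-0.59 ± 0.21). *Cd74*, of antigen presentation, differed by -0.49 ± 0.49, *Cd68*, of phagocyte lysosomes, by -0.16 ± 0.09 and *Tnfsf9* by -0.17 ± 0.17. *Il12b*, *Il1rn* and *Cxcl13* were too dim to test. Without rat 4 the count was 4 of 5, without rat 1 it was 1 of 5, and without rat 2 it was 1 of 5 and the list median went from -0.49 to -0.15. Of the homeostatic microglia markers 0 of 9 reached this p, with a median of -0.04, which turned to 0.02 with arrays scaled to their 75th percentile, and rat means between -0.04 and -0.01.

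All but 1 of the 8 myelination genes had a negative difference, and 3 were lower. They were *Erbb3*, a neuregulin receptor (-0.42 ± 0.12), *Cnp*, an enzyme of myelin (-0.65 ± 0.18), and *Mobp*, myelin-associated oligodendrocyte basic protein (-0.79 ± 0.30). *Cnp* measured 4.19, 3.40, 3.81 and 4.20 with 1 Hz and 3.83, 2.33, 3.60 and 3.23 with iTBS, and *Mobp* 6.79, 6.37, 5.95 and 6.56 against 6.40, 4.62, 5.99 and 5.51. In both the iTBS arrays of rats 2 and 4 were lowest. *Mog* (-0.45 ± 0.27), *Tf* (-0.36 ± 0.20), *Klk6* (-0.59 ± 0.24) and *Cadm4* (0.03 ± 0.13, with rat 2 missing) did not reach this p. *Sox10*, the factor that defines the oligodendrocyte lineage, had a mean difference of -1.35 ± 0.76 that came from 1 iTBS array, rat 3 at -0.45, with the other 7 levels between 3.54 and 4.65. Of the mature oligodendrocyte markers 3 of 11 were lower and 0 higher. This list shares *Cnp*, *Mobp* and *Mog* with the one above, so only the third of the lower genes, *Mag*, adds to it. The list had means of 5.60 to 5.75 on the 1 Hz arrays and 4.59 to 5.78 on the iTBS arrays. Their mean differences in rats 1 to 4 were 0.04, -1.02, -0.02 and -0.66, so rats 2 and 4 carried them. Without rat 2 the count was 1 of 11 and the median -0.17 in place of -0.45, and without rat 4 the count was 1 of 11. The part of the oligodendrocyte markers in these differences was not tested.

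Of 9 claudin genes, which seal tight junctions and myelin, only 3 were bright enough to test, and 1 was higher, *Cldn23* (1.03 ± 0.28, and 0.46 after normexp). *Cldn11*, the claudin of myelin, differed by -0.41 ± 0.24 and *Cldn14* by -0.07 ± 0.14. Of the neuronal genes of the study, *Grin3a*, *Chrna5* and *Sv2b* were the 3 higher and *Slc5a7* the 1 lower, *Slc6a13*, a GABA transporter of the meninges, differed by 0.50 ± 0.41, and *Gabra6* was too dim to test. Its other genes, *Igf2* (0.63 ± 0.45), *Plac8* (0.16 ± 0.26), *Folr1* (-0.19 ± 0.50) and *Otx2* (-0.04 ± 0.19), had unadjusted p-values above 0.05, and *Slc22a7* was not tested.

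All 11 markers of meninges and fibroblasts had a positive difference, with a median of 0.80, but 1 had an unadjusted p under 0.05: *Lum*, a proteoglycan of connective tissue (1.60 ± 0.34, and 0.57 after normexp). List means were 0.18 to 0.77 on the 1 Hz arrays and 0.49 to 2.70 on the iTBS arrays, and the top value belonged to rat 4, whose mean difference was 2.18 beside 0.10 to 0.52 in the other rats. Without rat 4 the median was 0.19 and 3 of 11 were at this p. *Dcn* is in this list as well as in the ventral one. Choroid plexus markers had 7 of 14 on the array bright enough to test, with a median of -0.16 that turned to 0.10 with 75th percentile scaling, and *Ttr*, transthyretin, its most abundant product, was lower by 1.17 ± 0.35 on the log2 scale. The 8 interneuron markers had a median of 0.25, 6 positive and 2 negative, with mean differences of 0.01, 0.29, 0.12 and 0.63 in rats 1 to 4. With 75th percentile scaling, and also after normexp, 3 of 8 were higher at this p and 0 lower. With z-scores only 1 was at this p, *Cck*, cholecystokinin. It measured 7.75, 8.67, 7.56 and 7.79 with 1 Hz and 8.56, 9.61, 7.98 and 8.43 with iTBS (0.70 ± 0.12). *Gfap*, the astrocyte filament, was lower in all 4 rats by 0.41 ± 0.09 on the log2 scale, though 8 of 9 astrocyte markers had a positive difference. Among T lymphocyte markers *Cd3e* and *Cd3g*, chains of the same receptor complex, differed by -2.66 ± 0.57 and 0.60 ± 0.13, and by -0.93 and 0.26 after normexp. *Cd3e* was dim, at 0.09, -1.99, -1.39 and -1.61 with 1 Hz and -2.85, -2.47, -5.44 and -4.80 with iTBS, and it was well above background on 2 of 4 iTBS arrays. The ependymal gene *Rsph1* was higher by 0.72 ± 0.15, while the other 3 of the 4 ependymal markers tested had a negative difference. The median of this list was -0.23, and its means in the rats ran from -1.22 to 1.43. Endothelial and pericyte lists had 0 genes at this p. The part of these cell types in the other differences was not tested.

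Energy and protein synthesis genes differed little in size. The NADH dehydrogenase list took all genes with the prefix Nduf, mostly subunits of this entry of the respiratory chain, but also assembly factors (Ndufaf). Of its 42 genes 7 were higher and 0 lower, with a median of 0.17. *Ndufb4* (0.30 ± 0.09) and *Ndufs1* (0.29 ± 0.09) had the smallest p. With 75th percentile scaling 3 were higher and the median was 0.10. All 16 ATP synthase genes, taken by the prefix Atp5 and including the inhibitor *Atp5if1*, had a positive difference. Their median was 0.17, and 1 was at this p, *Atp5me* (0.28 ± 0.10). The 77 ribosomal protein genes had a median of 0.08, which turned to -0.07 after that scaling. Of 10 stress chaperones tested, *Hsp90aa1* (0.32 ± 0.13) and *Hspd1* (0.21 ± 0.08) were higher and *Hmox1*, heme oxygenase (-0.39 ± 0.13), was lower, and with 75th percentile scaling none was.

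Whether the differences vary with age was tested with the AU and AI arrays, which come from other rats and share no array with the young, though most of them lay on slides 1 to 4 with the young arrays. The arrays of AU rat 4 (slides 4 and 5) and of AI rat 1 (slides 1 and 2) lay on 2 slides each, so there the slide does not cancel in the difference. In the 24-array fit 0 of 32101 probes passed for the difference between young and AU (limma, smallest adjusted p = 0.142), and 19.8% had an unadjusted p under 0.05. For young against AI also 0 passed (limma, smallest adjusted p = 0.573), with 5.67% at an unadjusted p under 0.05. Across 12578 genes the mean difference in young slices had a Pearson r of -0.41 with that in AU slices and 0.18 with that in AI slices. These are descriptions across genes, which are not independent replicates. Like the shares of opposite sign below, they were taken with z-scores only. For young minus AU, 1810 probes were higher and 4554 lower at an unadjusted p under 0.05 with z-scores (limma). With 75th percentile scaling 5446 were higher and 969 lower, so this lean turned with the scaling. Between single rats, r among the young was 0.13 to 0.41 in all 6 pairs, and between young and AU rats it was -0.58 to 0.23, negative in 12 of 16. With the 4 young rats, r was -0.58 to -0.24 for AU rat 1 and -0.38 to -0.06 for AU rat 4. For AU rat 2 it was -0.02 to 0.23 and for AU rat 3 -0.10 to 0.11. Between young and AI rats it was -0.29 to 0.38, negative in 5 of 16. Among AU rats it was -0.28 to 0.20, negative in 3 of 6 pairs, and among AI rats -0.01 to 0.28, negative in 1 of 6.

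The 10 higher and 10 lower genes were chosen in the young arrays, so their young values give no test here. In AU slices 19 of the 20 had a mean difference of the opposite sign, and in AI slices 11 of 20. Of all 12578 genes 70.4% had the opposite sign in AU and 36.5% in AI, and of the 3441 genes that went one way in all 4 young rats 83.0% and 30.3%. *Tacr3* differed by -1.75 in AU and -0.17 in AI, *Ccdc27* by 2.20 and 0.13, and *Wfs1* by 1.00 and 0.25. *Chrna4* stood at 0.03 in AU and -0.25 in AI. The 2 ventral markers were also opposite in sign: *Htr2c* differed by -1.57 in AU and -0.78 in AI, and *Nr2f2* by -1.22 and -0.05. *Htr2c* was higher after iTBS in 1 of 4 AU rats and in 2 of 4 AI rats.

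**Figure D5:**
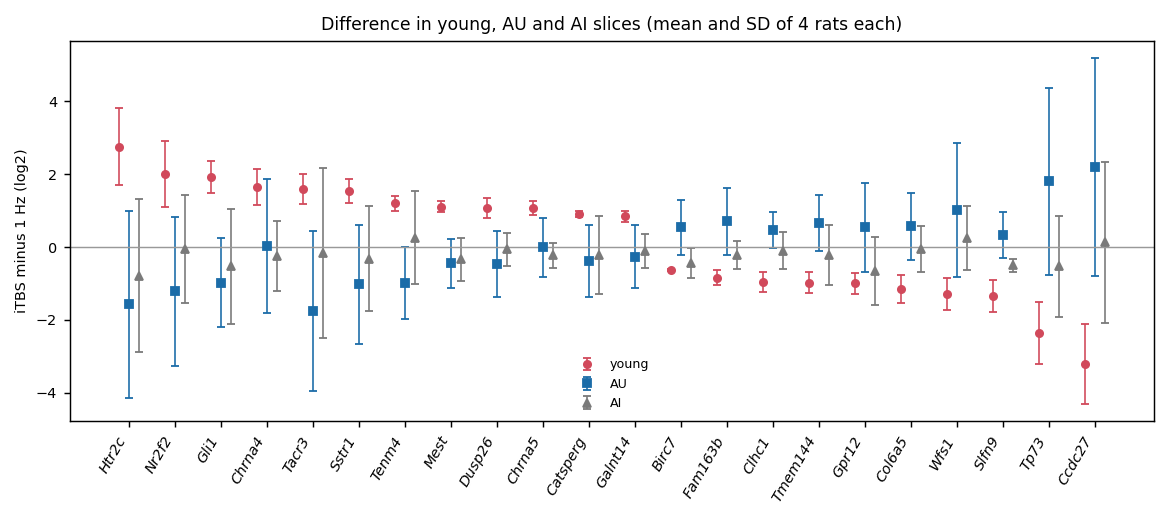
Difference, iTBS minus 1 Hz in log2 units, of the 20 genes with the smallest p in young slices and of *Htr2c* and *Nr2f2*, as mean and SD of 4 rats in young, AU and AI slices. AU means lie across 0 from the young means for all but *Chrna4* (0.03), and the AI means of the 20 genes lie across 0 for 11.

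For the tests of the difference itself, the named genes with the smallest p were these. Between young and AU they were *Camk2d*, with a difference of 1.08 ± 0.18, *Zbed5*, a gene derived from a transposase (-0.93 ± 0.16), and *Meox2*, a homeobox gene of vessels and mesoderm (-0.96 ± 0.17), all with an adjusted p of 0.142 in limma. *Camk2d* was lower after iTBS in all 4 AU rats, and *Zbed5* and *Meox2* were higher in all 4. Between young and AI they were *Grm8*, with a difference of 1.97 ± 0.28 (adjusted p = 0.573, limma), *Fabp6*, a bile acid-binding protein (-1.15 ± 0.19), and *Pbx3*, a homeobox cofactor (1.19 ± 0.24). *Grm8* was lower after iTBS in all 4 AI rats, by 0.40 on average, and higher in all 4 AU rats. For no gene was the difference between ages past the adjusted threshold.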

How the data were processed

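RNA of hippocampal slices was hybridised to one-color Agilent rat arrays. The authors deposited scanner files, whose intensity values (gProcessedSignal) were background-subtracted and detrended within each array by Feature Extraction per the file headers, and a second table whose score values the authors made as z-scores, the distance of a feature from the mean log intensity of its array in SDs. These were recomputed from log2 intensities the authors deposited and differed from the table by at most 0.005. Outlier spots were left out, spots of a probe were averaged, and 21109 of 45598 probes were named through RefSeq accessions, giving 16581 genes. Tests used limma 3.58.1 in R 4.3.3 (lmFit and eBayes) on probes well above background on all 4 arrays of a group, 30629 in number, with the rat as a fixed block and Benjamini-Hochberg adjustment at 0.05. Promoters and figures were handled in Python 3.11.15. The code was tested on simulated data. The number of arrays limits the precision.

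The rat pairs the dishes because its slices were divided between them. Deviations of its arrays from the group means correlated by 0.48, 0.71, 0.54 and 0.36 for rats 1 to 4. Named genes were the 10 of smallest p in each direction that moved one way in all 4 rats, every immediate early gene, every gene of the study's lists, the 2 of smallest p of each other list and the 3 of smallest p for each difference between ages. Other list members were named after their values were seen, because they make up a count. A few members of the lists are counted but not reported here. The comparison, the members and the lists were chosen with earlier results of these data known. Alternatives were no block, a random block, 24 or 36 arrays, 75th percentile scaling, normexp with an offset of 50 on median signals (the files hold no mean signals) with quantile normalization, the deposited table, other filters, a false discovery rate of 0.3, part of the study's criteria, genes in place of probes and leaving out each rat. The 4 repeat arrays of the series and the sham arrays were left out of the main tests, and 6958 probes with an Ensembl transcript name stayed unnamed.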

Additional observations from a re-analysis of the deposited data

Results flagged for a closer look

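In 9 of 267 groups of 4 levels, over 134 genes, 1 sample lay far from the other 3, by Dixon's test. Chance gives about 1 in 20 groups. In 1 Hz slices these were *Grin3a* in rat 3, high at 0.26 beside -0.70 to -0.66 (gap 0.961 of the range), *Igfbp2* in rat 2, low at 1.42 (0.957), *C1qb* in rat 1, high at 6.15 (0.883), *C1ql2* in rat 4, low at 1.19 (0.879), *Gabra3* in rat 4, low at -1.83 (0.870), and *Igf2* in rat 1, high at 3.23 (0.869). In iTBS slices they were *Fabp6* in rat 2, high at -2.63 (0.898), *Atf3* in rat 1, high at 5.50 (0.856), and *Atp5mf* in rat 2, high at 6.80 (0.845).

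Some named genes went one way in all 4 young rats and the other way in all 4 rats of another age, as did 473 of all 12578 genes (3.76%) in AU and 114 (0.906%) in AI. *Camk2d*, *Zbed5*, *Meox2*, *Grm8*, *Fabp6* and *Pbx3* were named for the smallest p of this difference, so their place here is no independent sign of it. The difference of the effects, young minus AU, was -1.17 for *Birc7*, -1.55 for *Fam163b*, 1.08 for *Camk2d*, 0.70 for *Hsp90aa1*, 0.87 for *Cd3g*, 1.25 for *Cck*, -0.93 for *Zbed5* and -0.96 for *Meox2*, with adjusted p-values of 0.142 to 0.153 (limma). Young minus AI, it was 1.97 for *Grm8*, 1.07 for *Rsph1*, -1.15 for *Fabp6* and 1.19 for *Pbx3*, with adjusted p-values of 0.573 to 0.807 (limma). None passed the threshold.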

How the results depend on the processing

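The main comparison called 0 probes. The rat as a random block gave 212 called and a false discovery rate of 0.3 gave 2117. The study's criteria without its analysis of variance and without its limit on the false discovery rate gave 460 (223 higher, 237 lower). Leaving out 1 rat gave 0 to 5. The 5 came without rat 3 and were *Ccdc27* (-3.75), *Dbh* (-3.09), *Rxrg* (2.80), *Nmb* (-3.23) and 1 probe with no gene name, with an adjusted p of 0.021 (limma), where the leave-outs ranged from 0.021 to 0.675 in their smallest adjusted p. Without the replicate block, in fits of 24 or 36 arrays, with 75th percentile scaling, normexp, the deposited table, no filter, a stricter filter and genes in place of probes the count was 0, with smallest adjusted p-values from 0.102 to 0.648 (limma). Both differences between ages gave 0 calls in every fit run, without the block too. The 20 genes described first kept their sign wherever they were tested (16 of the 20 under the stricter filter). They were chosen for 1 sign in all 4 rats, so leaving out a rat or changing the block could not turn it. Only 75th percentile scaling, normexp and genes in place of probes could, and in each 20 of 20 kept it. Without the block 17 of 20 had an unadjusted p under 0.05 (limma).

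Over the alternatives, 1866 of 1908 values of 137 named genes stayed within the spread over rats, 42 moved beyond it and 0 of those with an unadjusted p under 0.05 reversed. With 75th percentile scaling 15 of 137 moved, with normexp 24 and with genes in place of probes 3. All other alternatives had 0 and could hardly move a gene. Other blocks, arrays, filters or the deposited table keep its mean over rats nearly unchanged. Leaving out a rat shifts that mean by less than its spread. The 1866 is therefore no measure of stability. Of 351 list medians 341 stayed, 7 moved and 3 reversed, where only a median larger than its SD over rats could reverse. Counting smaller ones too, 11 of 39 lists changed sign under either scaling. The median of the metabotropic glutamate receptors was 0.13 with 75th percentile scaling (-0.06 before) and ran from -0.072 to 0.000913 over the leave-outs. That of the ionotropic subunits ran from -0.0839 to 0.0202, the positive value without rat 1. The cause was not tested. Beside the values given with the genes, normexp lowered *Slc5a7* to -0.38, *Fosl1* to -0.45, *Syt2* to 0.41, *Gabrg3* to 0.23, *Erbb3* to -0.23, *Hsp90aa1* to 0.15, *Chrnb2* to 0.08 and *Atp5me* to 0.07. The z-score also divides by the SD of each array, and the lowest of these was that of iTBS rat 2.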
